A study of Mus musculus with 4 samples.

Results

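Interferon-high cells are defined here as non-cycling thymocytes with Rag1 or Rag2 transcripts and co-receptor transcripts that also carried many transcripts of 6 interferon-stimulated genes, namely Rsad2, Usp18, Rtp4, Ifit1, Ifit3 and Isg15. They were counted in droplet single-cell RNA-seq libraries (10x Genomics 3′ v3) of mouse thymocytes, in which each captured transcript carries a unique molecular identifier (UMI). A cell had to have at least 200 genes, at least 1000 UMIs and at most 10% mitochondrial UMIs. It had to hold at least 2 UMIs of Cd4, Cd8a and Cd8b1 together, at least 1 UMI of Rag1 and Rag2, and 0 UMIs of the 5 cycling genes Top2a, Mki67, Pclaf, Nusap1 and Cdc20 and of the egress genes S1pr1 and Klf2. Of 57354 deposited cells, 33597 met the quality limits and 11609 met the whole gate. Among these, 90 had at least 4 UMIs of the 6 interferon genes and were selected on this sum as interferon-high, and the remaining 11519 are the reference ("other cells").

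The series compared mice with 2 floxed Tox4 alleles (Tox4;F/F, control) with mice that carried the same alleles and an Lck-Cre transgene (Tox4;F/F;Lck+, cKO), 2 libraries per group. The floxed alleles were present in all 4 libraries. The mice were 6 to 8 weeks old littermates on a C57BL/6 background. The Cre was driven by the proximal Lck promoter, which is active in developing T cells, and the study describes the deletion as specific to T cells. Whether stromal and myeloid cells of the cKO thymus kept Tox4 was not tested here. Each library is named by its group and the replicate number of its title, and the study describes the animals of these libraries as 2 pairs of control and cKO mice, which leaves 1 mouse per library. The study ran 2 independent experiments and asked for the same direction of change in both replicates, but no source used here states which libraries formed a pair. Control 1, control 2, cKO 1 and cKO 2 gave 27, 11, 29 and 23 interferon-high cells.

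Interferons are secreted cytokines that bind cell surface receptors and, through JAK kinases and STAT transcription factors, switch on a common set of target genes. Type I and type III interferons act mainly through a complex that contains IRF9 and binds the interferon-stimulated response element (ISRE). The products of the target genes block virus replication, sense foreign nucleic acids, raise antigen presentation by MHC class I and limit the response itself. In the thymus, type I interferon is made at steady state mainly in the medulla, and thymocytes meet it as they mature.

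The 6 genes of the rule play different parts in that response. Rsad2 encodes viperin, a radical SAM enzyme that makes a chain-terminating nucleotide, and lies on chromosome 12 (26442746 to 26456452). Usp18 (chromosome 6, 121245906 to 121270917) encodes a protease that removes ISG15 and also damps the type I interferon receptor. Rtp4 (chromosome 16, 23520291 to 23614222) encodes a receptor transporter protein. Ifit1 and Ifit3 lie near each other on chromosome 19 (34640871 to 34650009 and 34583531 to 34588731) and encode tetratricopeptide proteins that bind viral RNA. Isg15 (chromosome 4, 156199424 to 156200818) encodes a ubiquitin-like modifier. Positions are those of GENCODE M21 on GRCm38 (mm10), the build of the deposited counts.

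Promoter sequences are shown for the rule genes because the ISRE is the element by which this set of genes is known to be recognised. In the RefSeq promoter table (GRCm38.p6, 250 bases before and 50 after each gene start), 4 of the 6 genes had an entry, and the letters GAAA, 2 bases of any kind and GAAA again, the core of the element, were searched on both strands. All 4 promoters held them before the start, as 30-base windows written along the gene with the match in capitals (a match on the opposite strand reads TTTC, 2 bases, TTTC):
Isg15 (chr4:156200871-156200900, gene on the minus strand): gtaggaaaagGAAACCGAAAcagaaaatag
Ifit1 (chr19:34640794-34640823, gene on the plus strand): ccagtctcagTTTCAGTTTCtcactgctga
Ifit3 (chr19:34583397-34583426, gene on the plus strand): tttaagtctgTTTCAGTTTCtactttcctc
Rsad2 (chr12:26456553-26456582, gene on the minus strand): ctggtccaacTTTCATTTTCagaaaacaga
The matches began 72, 85, 122 and 120 bases before the start. Isg15 held 3 overlapping matches and Ifit1 and Ifit3 held 2 each. The same letters occurred in 1131 of 32851 promoters of the table (3.44%). A match is a description of the sequence and not a measured binding site.

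The 4 libraries held 42716798 to 62007453 UMIs. Between 20.6% and 48.3% of deposited cells were over the mitochondrial limit, with 48.3% and 46.1% in control 1 and cKO 1 against 20.6% and 23.1% in control 2 and cKO 2. After the limits, 1763 to 4021 cells per library met the gate. Tox4 itself, read at its 3′ end outside the floxed exons, reached 78.2, 81.2, 61.2 and 69.7 CPM (UMIs scaled to a common library total) in all gate cells of control 1, control 2, cKO 1 and cKO 2. Both cKO libraries were lower, as they were for 26.5% of all 11526 tested genes. The log2 fold change was -0.24 (SE 0.11, adjusted p 0.468), edgeR's quasi-likelihood test with Benjamini-Hochberg adjustment. A transcript that lacks the floxed exons keeps this end, so the value does not measure the deletion. Across libraries, 348 cell barcodes occurred in more than 1 library, on 697 cells, of which 3 were interferon-high cells.

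The share of interferon-high cells was higher in both libraries numbered 1 than in both numbered 2, and the ranges of the genotypes overlapped at the threshold of 4 UMIs. Of the gate cells, 1.30% were interferon-high in control 1 (27 of 2082, 95% exact Clopper-Pearson interval 0.856 to 1.88%) and 0.294% in control 2 (11 of 3743, 0.147 to 0.525%). In cKO 1 the share was 1.64% (29 of 1763, 1.10 to 2.35%) and in cKO 2 it was 0.572% (23 of 4021, 0.363 to 0.857%). Within each number the cKO library was the higher. The libraries numbered 1 were also those with more cells over the mitochondrial limit, and the part of this in the share was not tested. The means were 0.795% ± 0.709 (SD, n = 2) in control and 1.11% ± 0.759 (SD, n = 2) in cKO, a difference of 0.313 percentage points. The exact two-sided permutation test gave p = 0.667, where 2 against 2 libraries cannot go below 0.333. Without control 2 the difference was -0.188 and without cKO 1 it was -0.223 percentage points, so its sign rested on those libraries. With at most 5% mitochondrial UMIs both cKO libraries were above both control libraries, and the difference was 0.959 percentage points (exact permutation p = 0.333, the smallest possible). The intervals cover counting error only.

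Deeper cells reach 4 UMIs more easily, and interferon-high cells were deep, with median totals of 5836, 5272, 6019 and 2940 UMIs against 3167, 2655, 3002.5 and 2253 UMIs in the other cells of control 1, control 2, cKO 1 and cKO 2. Every gate cell was therefore thinned at random to 1000 UMIs, in a single draw per cell. At least 2 UMIs of the 6 genes were then left in 0.817%, 0.214%, 0.908% and 0.622% of gate cells of the same libraries. For at least 2 thinned UMIs control 1 was above control 2 and cKO 1 above cKO 2. The gap between the cKO libraries was 1.46-fold instead of 2.88-fold, and that between the control libraries 3.82-fold instead of 4.41-fold. For at least 3 the shares were 0.336%, 0.0267%, 0.113% and 0.249%, with cKO 2 above cKO 1. They rested on only 7, 1, 2 and 10 cells. The difference between the genotype means was 0.250 percentage points for at least 2 (exact permutation p = 0.667) and -0.000397 for at least 3 (p = 1). At least 1 UMI was left in 3.51%, 2.32%, 4.99% and 3.63%, where both cKO libraries were above both control libraries, by 1.40 percentage points in the mean (exact permutation p = 0.333). No cell class of these libraries is known to lack the 6 genes, so no background share from free RNA could be set.

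**Figure D1:**
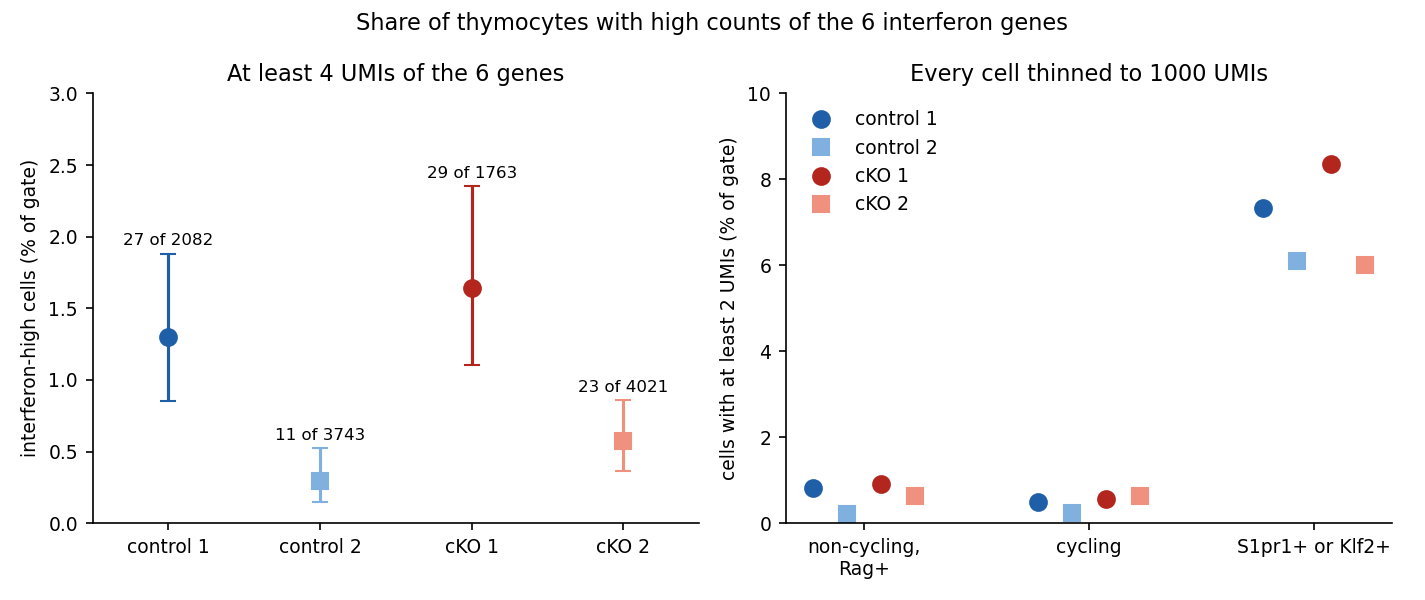
The left panel shows, for each library, interferon-high cells as a percent of gate cells with the exact 95% interval and the counts, and the right panel shows the percent of cells with at least 2 UMIs of the 6 genes after thinning to 1000 UMIs in 3 gates (1 point per library). Control 1 and cKO 1 lie above control 2 and cKO 2 in the left panel, and cells with S1pr1 or Klf2 transcripts lie at 6.01 to 8.36% in the right panel, above the 0.214 to 0.908% of the non-cycling Rag+ gate.

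The neighbouring thymocyte gates gave the frame for these shares. Cells with co-receptor transcripts, no cycling genes and at least 1 UMI of S1pr1 or Klf2, which mark thymocytes ready to leave the thymus, kept at least 2 thinned UMIs of the 6 genes in 7.33%, 6.1%, 8.36% and 6.01% of cells of control 1, control 2, cKO 1 and cKO 2. This was higher than in the Rag+ gate in 4 of 4 libraries, by 6.31 percentage points ± 0.889 (SD, n = 4), with an exact sign-flip permutation p of 0.13, the smallest that 4 pairs allow. In cells with cycling genes the share was 0.487%, 0.232%, 0.559% and 0.629%, which differed from the Rag+ gate by -0.163 percentage points ± 0.203 (SD, n = 4; exact permutation p = 0.5). Interferon-high cells of the Rag+ gate made up 6.94% of the 1297 quality cells with at least 4 UMIs of the 6 genes. Most cells with high counts of these genes therefore lay outside the gate.

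The 6 genes chose the cells, so their levels are given as a description without a test. Ifit1 had 447, 402, 421 and 693 CPM in the interferon-high cells of control 1, control 2, cKO 1 and cKO 2, against 4.66, 3.38, 3.76 and 7.08 CPM in the other cells. Rtp4 had 441, 372, 359.6 and 497 CPM against 13, 8.41, 12 and 11.4 CPM. Isg15 had 302, 194, 303 and 231 CPM against 8.61, 4.02, 13.2 and 5.46 CPM. Ifit1 and Rtp4 were highest in cKO 2, and Isg15 was lowest in control 2. Rsad2 had 189, 74.5, 230.4 and 231 CPM against 1.27, 1.55, 2.68 and 2.02 CPM, lowest in control 2 among the interferon-high cells. Usp18 had 107, 89.4, 152 and 185 CPM against 3.53, 2.01, 6.62 and 5.36 CPM. Ifit3 had 50.4, 29.8, 56.2 and 92.4 CPM against 1.41, 2.56, 2.15 and 3.34 CPM and was the lowest of the 6 in the interferon-high cells of every library. Ifit3 has a close copy, Ifit3b, and reads that map to both are not assigned, so its counts are uncertain.

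The cells ranged from just inside the threshold to far above it. The sum of the 6 genes had a minimum of 4, a median of 6 and a maximum of 35 UMIs, and 34 of the 90 cells had at least 8. Of the 90 cells, 7 drew their sum from 1 gene, 17 from 2, 34 from 3, 19 from 4, 12 from 5 and 1 from all 6 genes. Among the other cells, 10665 had no UMI of the 6 genes, 705 had 1, 113 had 2 and 36 had 3. In all, the 90 cells held 760 of the 1799 UMIs of these genes in the gate (42.2%), with 51.5%, 24.5%, 54.5% and 32.7% in control 1, control 2, cKO 1 and cKO 2. The other UMIs of these genes sat in cells below the threshold.

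Cells just inside and just outside the threshold had close summed levels of genes that the rule did not use. The 36 cells with 3 UMIs had 7369 CPM of 96 other interferon-stimulated genes summed, and the 22 cells with 4 UMIs had 7205 CPM. Over the whole range the summed level of these 96 genes rose with the sum of the 6. In control 1 it was 3676, 4138, 6404, 9223 and 12600.3 CPM in cells with 0, 1, 2 to 3, 4 to 7, and 8 or more UMIs. In control 2 it was 3496, 4173, 6858, 7713 and 10997 CPM. In cKO 1 it was 3697, 4213, 5548, 6507 and 12358 CPM. In cKO 2 it was 3569, 4597, 6479.7, 11456 and 18562 CPM. Each library rose at every step, and cKO 2 rose most. The top bin of control 2 held 2 cells. Genes of MHC class I presentation rose in the same order in every library, from 2209 to 7282 CPM in control 1, from 1973 to 5629 CPM in control 2, from 2206 to 5851 CPM in cKO 1 and from 2040.2 to 6068 CPM in cKO 2. The threshold thus cut through a continuous range of levels.

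**Figure D2:**
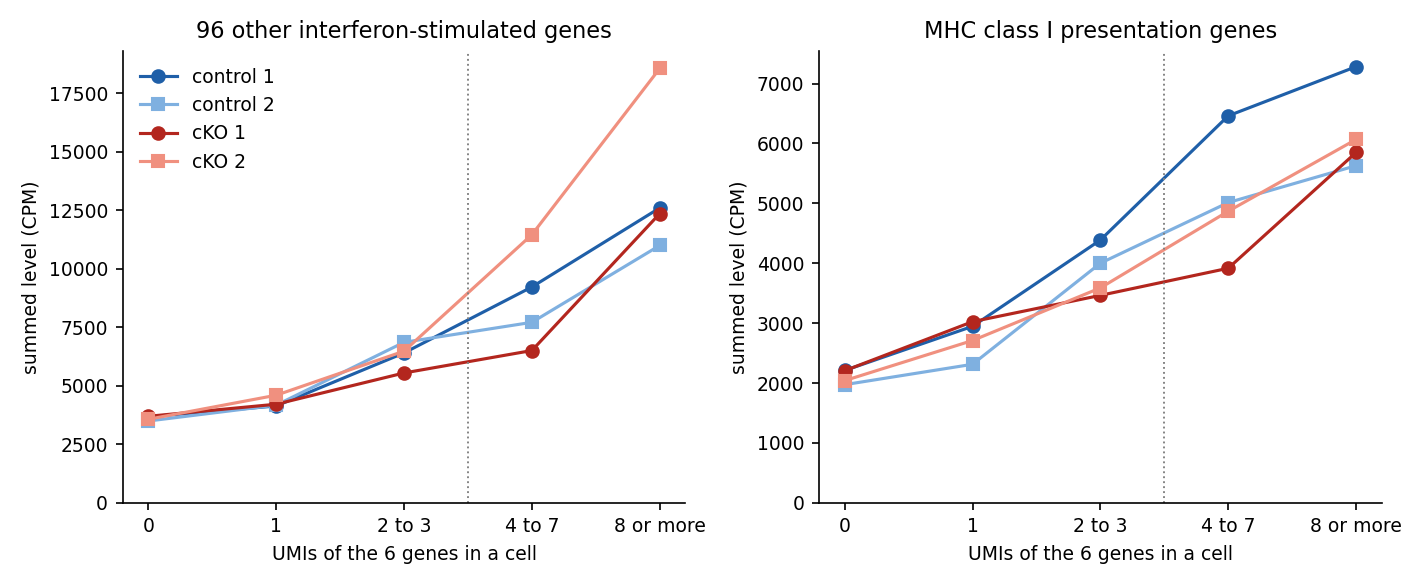
Summed level (CPM) of 96 interferon-stimulated genes outside the rule (left) and of MHC class I presentation genes (right) in gate cells binned by their UMIs of the 6 rule genes, 1 line per library, with the threshold of 4 UMIs as a dotted line. All 4 lines rise from bin to bin in both panels, and the cKO 2 line reaches 18562 CPM in the left panel.

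As a further description of the rule genes, the set was split, with no match of depth and as no support for the grouping. Cells with at least 2 UMIs of Rsad2, Usp18 and Rtp4 (42, 23, 40 and 32 cells) had 474, 286, 468 and 535 CPM of Ifit1, Ifit3 and Isg15 in control 1, control 2, cKO 1 and cKO 2. The rest of the gate had 16.0, 11.2, 25.4 and 18.6 CPM of the same 3 genes. At least 1 UMI of them was found in 59.5%, 26.1%, 57.5% and 53.1% of the chosen cells against 4.61%, 2.66%, 5.75% and 3.61% of the rest. Control 2 had the lowest values on both counts.

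Genes that the rule did not use were then compared between interferon-high and other cells. UMIs were summed per library and population, and edgeR's quasi-likelihood test with the library as a block was applied to 7936 genes with a mean of at least 10 CPM over the 8 sums. The 2 populations came from the same cells' libraries and were told apart by RNA of the same droplets, so the calls describe which transcripts accompany the 6 genes and are no independent sample. At an adjusted p under 0.05, 646 genes (8.14% of those tested) differed, 415 higher (5.23%) and 231 lower (2.91%) in the interferon-high cells. Of the 415, 76 had under 10 CPM in the other cells and entered the test only through the interferon-high cells, and 339 of the 7656 genes above that level were called higher (4.43%). The balance of directions depended on the setting, with 90 higher and 109 lower at a limit of 5% mitochondrial UMIs, 342 higher and 365 lower without a low-count filter, 182 and 63 with the 10 other cells nearest in UMI total as reference, 223 and 117 without control 1 and 221 and 75 without cKO 1. The median log2 difference of all tested genes was -0.04. All adjusted p-values below are of this test unless another is named.

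Genes of the interferon response outside the rule were counted only where the other cells alone reached a mean of 10 CPM. Of 123 genes on 8 lists of interferon response genes (transcription factors, sensors, effectors and other targets, none of the 6), 85 were tested. The low-value filter took a mean over both populations, and 23 of the 85 passed it only through the interferon-high cells, so that they had to differ; these are left out of the counts and given below as levels without a test. Of the remaining 62, 48 were called higher and 0 lower, against the 4.43% of all genes at that level. In all 4 libraries 47 of the 62 were higher, as were 6.91% of the 7656 genes and 7.67% of all 7936 tested. Their median log2 difference was 2.09 at a median of -0.06 over the 7656. When the 10 other cells of the same library nearest in UMI total served as reference for each interferon-high cell, the 18 named genes of these lists and of the MHC class I list with at least 10 CPM in the other cells all kept their call, as did 36 of the 51 named genes of any kind at that level. At the limit of 5% mitochondrial UMIs, 15 of the 18 and 31 of the 51 kept it. With control 1, cKO 1 or cKO 2 left out, 1 of the 18 lost it each time. The same held without cells of at least 3 macrophage or dendritic cell UMIs. The 18 were named for the largest differences among called members, which makes a lost call less likely.

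**Figure D3:**
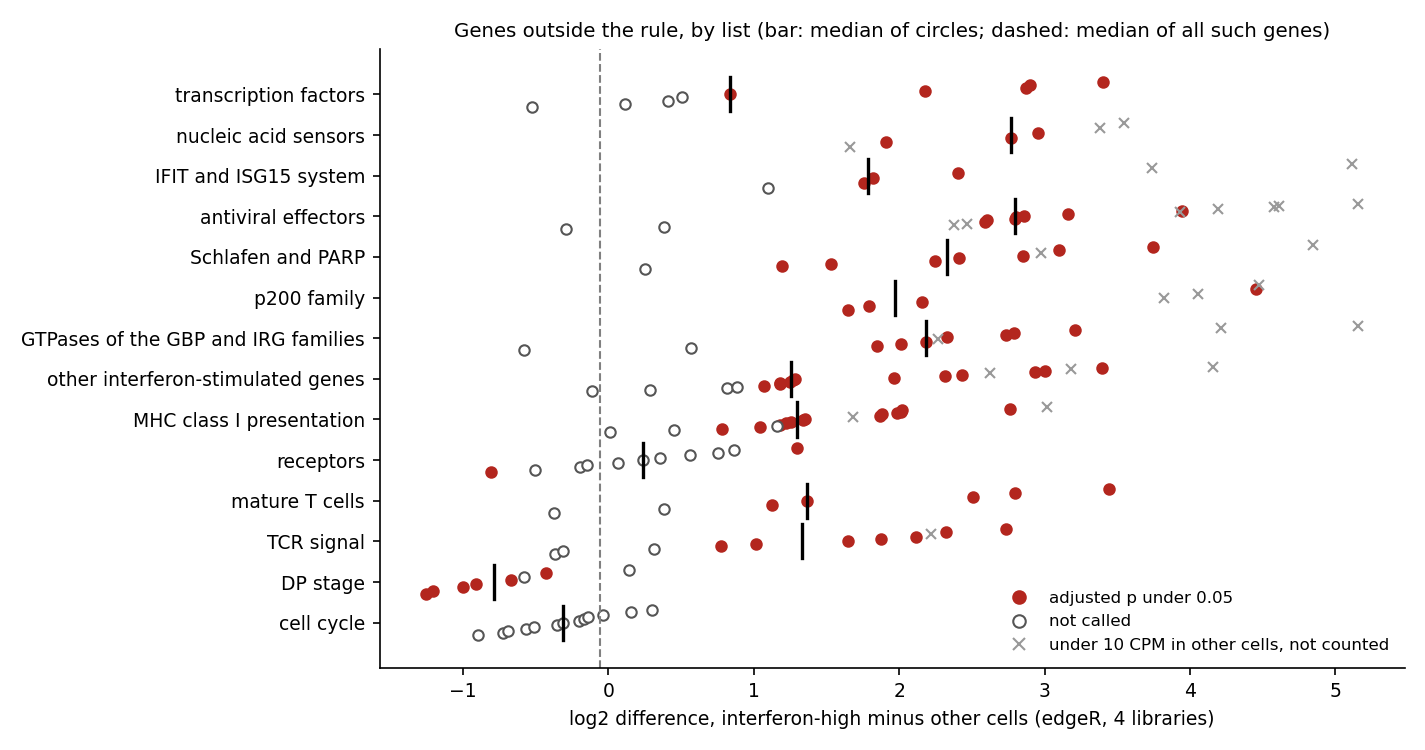
Log2 difference between interferon-high and other cells (x axis, edgeR) for every tested gene of 14 lists (1 point per gene, circles filled where the adjusted p was under 0.05, crosses for genes under 10 CPM in the other cells, which are not counted), with the median of the circles of each list as a bar and the median of all genes of at least 10 CPM in the other cells as a dashed line. The medians of the interferon lists and of MHC class I lie to the right of the dashed line, and the DP stage list to its left with 6 of 8 genes called lower. No gene of the cell cycle list was called, and the gate had left cells with cycling genes out of both populations.

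Transcripts of the cytokines themselves were not found in these cells. Of 21 interferon genes, 19 had no UMI in any gate cell, and the interferon-high cells had 0 UMIs of all 21 among 490437, which allows up to 6.12 CPM for a gene. Ifng had 17 and Ifnz 2 UMIs in the other cells. The 3′ assay counts only polyadenylated RNA of the sampled thymocytes, and makers of interferon outside the suspension were not measured.

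Of 12 receptor and signalling genes, 11 were tested, and 1 was called higher and 1 lower, near the background of 4.43% and 3.02% of all genes at that level in the other cells, so the counts are no result about the list. Ifngr2, a chain of the interferon-γ receptor, had 44.1, 44.7, 95.5 and 139 CPM in interferon-high and 36.3, 33.6, 39.3 and 31 CPM in other cells of control 1, control 2, cKO 1 and cKO 2. It was higher in 4 of 4 libraries, and its log2 difference was 1.3 (SE 0.31, adjusted p 0.00348). The gaps were larger in the cKO libraries, but the interaction with genotype was called for 0 of the 11 genes. In the interferon-high cells, 12.6% of the 2202 genes tested between genotypes were higher in both cKO libraries. Ifngr1, the ligand-binding chain of the same receptor, had 258, 328, 146 and 393 CPM against 535, 479, 507 and 451 CPM. It was lower in 4 of 4 libraries, with a log2 difference of -0.81 (SE 0.16, adjusted p 0.000436). The chains of the type I receptor did not pass the test, with log2 differences of 0.07 for Ifnar1 (adjusted p 0.95) and 0.36 for Ifnar2 (adjusted p 0.666). The kinases Jak1, Jak2 and Tyk2 (0.24, 0.56 and 0.87) and the feedback inhibitors Socs1 and Socs3 (-0.2 and -0.51) did not pass it either.

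Of the transcription factors of the pathway, all 9 tested had at least 10 CPM in the other cells, and 5 were called higher and 0 lower. Irf7, which amplifies type I interferon production, had 101, 119, 112 and 57.7 CPM in interferon-high and 13.1, 7.68, 9.84 and 9.40 CPM in other cells of control 1, control 2, cKO 1 and cKO 2, a log2 difference of 3.4 (SE 0.36, adjusted p 1.23e-09). Irf9, a DNA-binding part of the complex that recognises the ISRE, had 139, 89.4, 163 and 150.1 CPM against 19.9, 15.5, 22.9 and 24.5 CPM, a log2 difference of 2.87 (SE 0.26, adjusted p 1.88e-11). Irf7, Irf9 and Irf1 (2.17, SE 0.33, adjusted p 3.15e-06) were higher in 4 of 4 libraries. Irf2 differed less, by 0.84 (SE 0.19, adjusted p 0.00226). Stat2 (0.41, adjusted p 0.726), Stat3 (0.11), Irf3 (-0.52) and Irf8 (0.51) did not pass the test.

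Of the nucleic acid sensors, 3 had at least 10 CPM in the other cells, Zbp1, Ddx58 and Adar, and all 3 were called higher. Zbp1, a sensor of Z-form nucleic acids, had 132, 104, 135 and 208 CPM against 19.9, 21, 21.5 and 18.7 CPM, a log2 difference of 2.96 (SE 0.27, adjusted p 1.51e-11). Ddx58, which encodes RIG-I, had 94.5, 119, 84.3 and 196 CPM against 20.3, 17.7, 17.7 and 18.4 CPM, with a log2 difference of 2.77 (SE 0.30, adjusted p 1.62e-09). Both lay apart from the other cells in every library. Ifih1, which encodes the long double-stranded RNA sensor MDA5, had 50.4, 14.9, 61.8 and 127 CPM against 4.80 to 7.08 CPM, and Dhx58, a regulator of both RNA sensors, 25.2, 14.9, 22.5 and 34.6 CPM against 1.65 to 3.13 CPM. Both passed the low-value filter only through the interferon-high cells.

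Of the antiviral effectors, 7 of the 9 with at least 10 CPM in the other cells were called higher and 0 lower. Bst2, which encodes the virus-tethering protein tetherin, had 454, 313, 438 and 600.5 CPM against 74.8, 59.4, 109 and 81.6 CPM in control 1, control 2, cKO 1 and cKO 2. It was higher in every library, with a log2 difference of 2.59 (SE 0.15, adjusted p 4.01e-17). Oas2 and Oas3, which encode oligoadenylate synthetases, Oasl2, a relative of them, and Cmpk2, a mitochondrial nucleotide kinase that lies next to Rsad2, passed the filter only through the interferon-high cells and are given as levels. Oas2 had 6.30, 14.9, 16.9 and 46.2 CPM in the interferon-high cells, on 1 to 4 UMIs per library, against 0.358 to 0.708 CPM in the other cells. Cmpk2 had 18.9, 44.7, 33.7 and 46.2 CPM against 1.25 to 1.98 CPM, Oasl2 107, 29.8, 39.3 and 80.8 CPM against 2.10 to 3.81 CPM and Oas3 37.8, 44.7, 33.7 and 69.3 CPM against 1.65 to 3.58 CPM. Bst2 was named after its values were seen, as the member with the smallest adjusted p.

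In the IFIT and ISG15 system, 3 of the 4 genes with at least 10 CPM in the other cells were called higher. Herc6, the mouse ligase of ISG15, had 75.6, 119, 101 and 162 CPM against 20.2, 25.1, 21.6 and 24.2 CPM, higher in 4 of 4 libraries, and differed by 2.41 (SE 0.28, adjusted p 1.56e-08). Ifit2 differed by 1.82 (SE 0.46, adjusted p 0.00627), with 0 CPM in the interferon-high cells of control 2. Below 10 CPM in the other cells were Ifit1bl1, a relative of Ifit1 on the same chromosome, with 18.9, 14.9, 22.5 and 46.2 CPM against 0.274 to 1.11 CPM, and Ube2l6, the conjugating enzyme of ISG15, with 50.4, 0, 61.8 and 11.5 CPM against 1.01 to 3.67 CPM. Reads shared between Ifit1 and Ifit1bl1 cannot be assigned, so the counts of close copies are uncertain.

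Of the Schlafen and PARP genes, 7 of the 8 with at least 10 CPM in the other cells were called higher. Parp14, an ADP-ribosyltransferase, had 151, 209, 163 and 254 CPM against 14.5, 14.1, 15.7 and 16.5 CPM, a log2 difference of 3.74 (SE 0.26, adjusted p 2.01e-15), higher in 4 of 4 libraries without overlap. Slfn5 differed by 3.1 (SE 0.27, adjusted p 4.45e-12) and was highest in cKO 2, at 335 CPM. The other two were below 10 CPM in the other cells. Slfn1, named for its effect on thymocyte growth, had 132, 89.4, 61.8 and 162 CPM against 3.22 to 5.65 CPM, and Parp12 had 31.5, 29.8, 0 and 57.7 CPM against 3.11 to 4.15 CPM.

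In the p200 family, which encodes HIN domain DNA-binding proteins, all 4 genes with at least 10 CPM in the other cells (Ifi203, Ifi206, Ifi209 and Mndal) were called higher. Ifi206 had 227, 134, 163 and 312 CPM against 9.74, 7.13, 12 and 11.7 CPM, a log2 difference of 4.46 (SE 0.27, adjusted p 7.66e-17). Ifi208 had 94.5, 29.8, 157 and 254 CPM against 8.05 to 9.60 CPM, Ifi214 25.2, 0, 28.1 and 80.8 CPM against 0.549 to 2.26 CPM and Ifi213 44.1, 14.9, 39.3 and 0 CPM against 1.01 to 3.04 CPM, all 3 below 10 CPM in the other cells and not counted. These genes form a cluster of similar copies on chromosome 1, so reads may be split or lost between them.

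Of the GTPases of the GBP and IRG families, which attack vacuoles of intracellular microbes, 7 of the 9 with at least 10 CPM in the other cells were called higher. Irgm1 had 81.9, 104, 124 and 139 CPM against 12.4, 14.2, 13.2 and 12.8 CPM, a log2 difference of 3.21 (SE 0.32, adjusted p 1.89e-10). Ifi47 had 403, 238, 348 and 323 CPM against 51.4, 52.9, 61 and 48.3 CPM, a log2 difference of 2.79 (SE 0.18, adjusted p 2.8e-16). Both were higher in every library. Below that level in the other cells were Iigp1, which was uneven, with 170.1, 29.8, 5.62 and 162 CPM in control 1, control 2, cKO 1 and cKO 2 against 1.83 to 3.03 CPM, and Tgtp2, with 37.8, 14.9, 45 and 34.6 CPM against 1.62 to 2.86 CPM.

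Of the other interferon-stimulated genes, 12 of the 16 with at least 10 CPM in the other cells were called higher. Trim30a, a ubiquitin ligase of the TRIM family, had 265, 179, 179.8 and 369.5 CPM against 27, 25.5, 22.5 and 26.6 CPM, a log2 difference of 3.39 (SE 0.22, adjusted p 3.89e-16). Lgals3bp, a secreted galectin-binding protein, differed by 3.0 (SE 0.29, adjusted p 1.14e-10). Phf11c had 101, 89.4, 73.1 and 185 CPM against 4.02 to 7.91 CPM and Trim30d 50.4, 0, 5.62 and 34.6 CPM against 2.10 to 3.76 CPM, both below 10 CPM in the other cells. Ly6e stood apart in this list. At 674, 879, 714 and 1293 CPM in the interferon-high cells it was one of the most abundant members, yet the other cells had 938, 1009.6, 1031 and 1045 CPM and the log2 difference of -0.11 did not pass the test (adjusted p 0.743). Ly6e was named after its values were seen.

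**Figure D4:**
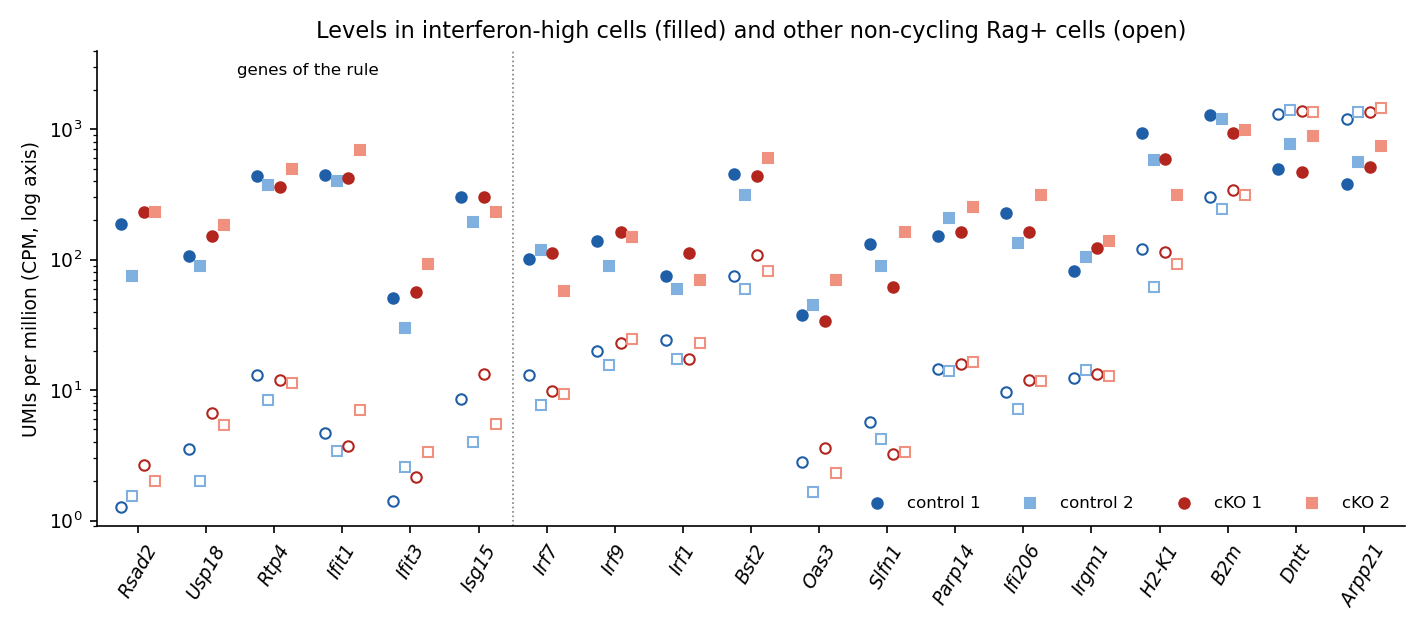
Levels (CPM, log axis) of the 6 rule genes, of 11 genes of the interferon and MHC class I lists and of the DP stage genes Dntt and Arpp21, with filled symbols for interferon-high cells and open symbols for other gate cells of the same library. Filled symbols lie above open ones in every library for the rule genes and the 11 response genes, such as 313 to 600.5 CPM of Bst2 against 59.4 to 109 CPM, and below them for both DP stage genes.

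Of the MHC class I presentation genes with at least 10 CPM in the other cells, 13 of 16 were called higher and 0 lower, with a median log2 difference of 1.30. H2-K1, a classical class I heavy chain, had 932, 581, 590.0 and 312 CPM in interferon-high and 120.3, 61.9, 114 and 92.2 CPM in other cells of control 1, control 2, cKO 1 and cKO 2. H2-K1 was highest in control 1 and lowest in cKO 2, yet above the other cells in each, and its log2 difference was 2.76 (SE 0.16, adjusted p 1.77e-17). H2-D1 had 806, 640.5, 489 and 531 CPM against 177, 156, 176 and 152 CPM, a log2 difference of 2.01 (SE 0.13, adjusted p 1.12e-15). Tapbp, which loads peptides on class I molecules, differed by 2.02 (SE 0.19, adjusted p 7.58e-11). Nlrc5, the transactivator of class I genes, had 44.1, 14.9, 22.5 and 57.7 CPM against 2.10 to 5.54 CPM, below 10 CPM in the other cells. Genes of this list are also known to rise as thymocytes mature, and their values among cells with selection RNA are given below. Reads of the class I heavy chains can be shared between copies, so single H2 genes are uncertain.

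The labelled cell type was checked against markers of DP thymocytes. Transcripts of both Cd4 and Cd8 (Cd8a or Cd8b1) were found in 57 of the 90 interferon-high cells (63.3%) against 80.8% of the other cells, Cd8 transcripts without Cd4 in 33.3% against 18.8%, and Cd4 without Cd8 in 3.33% against 0.373%. After thinning to 1000 UMIs, both co-receptors were found in 24.4% against 47.4%, lower in 4 of 4 libraries, and Cd8 without Cd4 in 44.4% against 47.9%, in a single random draw per cell. Rag1 had 718, 998, 433 and 1120.1 CPM against 2094, 1873, 1733 and 1945 CPM, and 31.1% of the interferon-high cells held a single Rag UMI against 9.41% of the other cells. Both measures use genes of the gate and are descriptions. The name DP is used here for the gate only.

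Genes of the DP stage that the rule did not use were lower, with 6 of 8 called lower and 0 higher, against a background of 3.02% of the 7656 genes called lower. Arpp21, a phosphoprotein abundant in DP cells, had 378, 566, 517 and 751 CPM against 1204, 1364, 1366 and 1459 CPM in control 1, control 2, cKO 1 and cKO 2. It fell below the other cells in 4 of 4 libraries, with a log2 difference of -1.21 (SE 0.13, adjusted p 1.79e-09). Dntt, the polymerase that adds bases at V(D)J junctions, had 498, 775, 472 and 889 CPM against 1317, 1414, 1369 and 1345 CPM, a log2 difference of -1.0 (SE 0.13, adjusted p 2.18e-07). Bcl2l1, which encodes the survival protein BCL-xL, differed by -0.91 (SE 0.23, adjusted p 0.00541). Cd1d1 (-0.58, adjusted p 0.341) and Ptcra (0.14, adjusted p 0.905) did not pass the test.

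Genes of T cell receptor (TCR) signalling and of mature T cells were compared next. Of the TCR signal list, 7 of the 10 genes with at least 10 CPM in the other cells were called higher, and of the mature T cell list 5 of 7. The background was 4.43% called higher. In all 4 libraries 2 of those 10 and 5 of those 7 were higher, against 6.91% of all genes at that level. Among the called TCR genes, Nr4a1, Cd69 and Cd5 were lower than in the other cells in control 2 and Egr1 and Nfkbid in cKO 1, and Id3 (-0.37), Gata3 (-0.31) and S1pr4 (-0.37) had log2 differences below 0 that did not pass the test. Of the 11 named genes at that level in the DP stage, TCR signal and mature T cell lists, 8 kept their call with the depth-matched reference. At the limit of 5% mitochondrial UMIs 6 of the 11 kept it. Among cells with at most 1 UMI of 6 selection genes described below, 1 of the 8 with a value kept it. Nr4a1, an immediate early gene of TCR signalling, had 170.1, 14.9, 84.3 and 139 CPM against 21.9, 20.2, 15 and 15.2 CPM, higher in 3 of 4 libraries with control 2 as the exception, and a log2 difference of 2.73 (SE 0.33, adjusted p 2.78e-08). Id2, an inhibitor of E proteins, differed by 2.12 (SE 0.26, adjusted p 5.56e-08), and Nfkbid by 2.32 (SE 0.50, adjusted p 0.00102). Egr2, another early target of the TCR, had 31.5, 14.9, 16.9 and 34.6 CPM against 3.38 to 9.60 CPM, below 10 CPM in the other cells. Ms4a4b, a membrane protein of mature T cells, had 491, 268, 230.4 and 381 CPM against 39.5, 22.9, 43.1 and 29.2 CPM, higher in 4 of 4 libraries, and a log2 difference of 3.44 (SE 0.21, adjusted p 4.01e-17). Il7r, the receptor of the survival cytokine IL-7, differed by 2.8 (SE 0.25, adjusted p 1.88e-11), Ccr7, which guides cells to the medulla, by 2.51 (SE 0.34, adjusted p 4.81e-07), and Bcl2 by 1.37 (SE 0.22, adjusted p 1.41e-05). For Bcl2 the log2 difference was 0.35 with the depth-matched reference (adjusted p 0.59) and -0.18 among cells with at least 2 UMIs of 6 selection genes described below (adjusted p 0.871). None of 13 tested genes of the cell cycle list was called in edgeR, and all 13 had an unadjusted p above 0.05. Their median log2 difference was -0.31, with 2 of the 13 above 0. The gate left cells with UMIs of the 5 cycling genes out of both populations, so this result was largely set by the rule.

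Transcripts of 6 genes that rise with positive selection (Cd69, Cd5, Itm2a, Ccr7, Il7r and Ms4a4b) were then summed per cell. These genes were chosen after their levels in interferon-high and other cells had been seen, so the shares in this paragraph restate what picked them and support nothing. At least 2 UMIs of these 6 selection genes were found in 59 of 90 interferon-high cells (65.6%) against 13.7% of the other cells. After thinning to 1000 UMIs, at least 1 such UMI was found in 52.2% against 16.8%, and the interferon-high cells were higher in 4 of 4 libraries. Seen from the other side, 4.07%, 1.30%, 7.12% and 2.94% of gate cells with at least 2 selection UMIs were interferon-high in control 1, control 2, cKO 1 and cKO 2, against 0.549%, 0.152%, 0.417% and 0.304% of those with at most 1. With thinned cells (at least 2 UMIs of the 6 interferon genes) the values were 1.58%, 1.08%, 3.72% and 2.21% against 0.61%, 0.0914%, 0.278% and 0.443%. The cells with more selection UMIs had the higher share in each library on both scales. Among the cells with at least 2 selection UMIs the genotype means of the unthinned share differed by 2.34 percentage points (exact permutation p = 0.667), and among the rest by 0.0100 (p = 1).

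The comparison was repeated within the cells with at least 2 selection UMIs, so that both populations carried selection RNA. The counts cover genes with at least 10 CPM in the other cells of the whole gate that were tested both there and in the subset, without the 6 selection genes. Of 7463 such genes, 116 (1.55%) were called higher and 102 lower. Among the interferon lists, 4 of 9 transcription factors, 3 of 3 sensors, 2 of 4 IFIT and ISG15 genes, 7 of 9 antiviral effectors, 6 of 8 Schlafen and PARP genes, 4 of 4 p200 genes, 8 of 9 GTPases and 10 of 16 other genes were called higher, and Irf7 differed by 2.71 (SE 0.41). MHC class I presentation had 12 of 16 genes called higher, with a median log2 difference of 1.0 against 1.30 for the same genes in the whole gate. The DP stage list had 3 of 8 called lower. The TCR signal list had 3 of 7 called higher and 2 lower, with a median of -0.42 against 1.02 for the same 7 genes in the whole gate. The mature T cell list had 1 of 4 called higher, with a median of -0.13 against 0.75 for the same 4 genes. Among cells with at most 1 selection UMI, which held 31 interferon-high cells, 50 of 7275 genes (0.687%) were called higher. Of the interferon lists, 3 of 9 transcription factors, 1 of 3 sensors, 1 of 4 IFIT and ISG15 genes, 5 of 9 antiviral effectors, 5 of 8 Schlafen and PARP genes, 3 of 4 p200 genes, 5 of 9 GTPases and 5 of 16 other genes were called higher, and 7 of the 18 named genes of these and the MHC class I list lost their call. The subset holds fewer cells, so the lost calls alone do not show a smaller difference. The medians there were 0.60, 2.11, 1.51, 2.63, 2.51, 1.85, 1.73 and 0.98 in the same order, against 0.84, 2.77, 1.79, 2.80, 2.33, 1.97, 2.18 and 1.26 over the same genes in the whole gate. They were lower except for the Schlafen and PARP genes, and the change was not tested. The median of all these genes was also lower in the subset, at -0.40 against -0.06. There Irf7 differed by 3.47 (SE 0.76) and Irf9 by 3.32 (SE 0.50), and 3 of 16 MHC class I genes were called higher, with a median of 0.96 at a median of all these genes of -0.40. H2-K1 differed by 1.96 (SE 0.16) in the first of these sets of cells and by 1.06 (SE 0.46, adjusted p 0.384) in the second. In the second set the TCR signal and mature T cell lists had 0 genes called, with medians of -0.03 and -0.01. Among markers of other cells, 2 of 3 dendritic, 4 of 4 erythroid and 1 of 3 γδ T cell genes were called higher in it. The 4 erythroid genes were called lower in the first set.

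**Figure D5:**
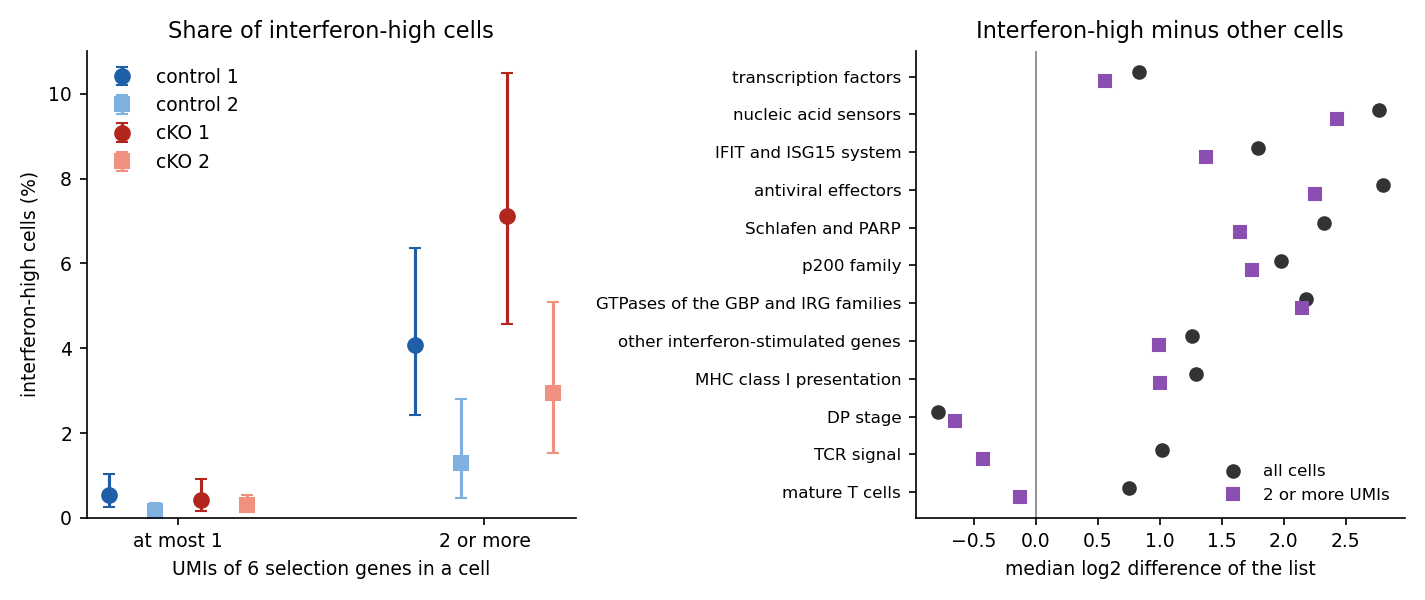
The left panel shows the percent of interferon-high cells, with exact 95% intervals, among gate cells with at most 1 and with 2 or more UMIs of 6 selection genes, and the right panel the median log2 difference of each list in all gate cells (circles) and in cells with 2 or more such UMIs (squares), over the same genes and without the 6 selection genes. The share reaches 1.30 to 7.12% in the cells with more selection UMIs. Among those cells the medians of the TCR signal and mature T cell lists are -0.42 and -0.13, against 1.02 and 0.75 in all cells. The medians of the interferon lists are also lower than in all cells. The lowest is that of the transcription factors, 0.56 against 0.84.

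Markers of other cells were examined in the interferon-high cells. Of the macrophage list, 2 of 5 tested genes were called lower, against 3.02% of all genes with at least 10 CPM in the other cells. The summed 9 genes had 95.5 to 119 CPM in the interferon-high against 197 to 349 CPM in the other cells, with Csf1r and Adgre1 at 0 in all 4 libraries. Apoe differed by -1.04 (SE 0.25, adjusted p 0.00359) and C1qa by -2.48 (SE 0.79, adjusted p 0.0422). Xcr1, Clec9a and Flt3 of the dendritic cell list, Cd79a and Ms4a1 of the B cell list and Foxn1 of the epithelial list were at 0. The counts still allow up to 6.12 CPM for a gene at 0. Other members of these lists were seen, in control 1 for example 6 of 9 dendritic, 2 of 5 B cell and 3 of 6 epithelial genes. The summed B cell list had 202, 417, 230.4 and 473 CPM in the interferon-high cells of control 1, control 2, cKO 1 and cKO 2 against 440, 417, 515 and 460 CPM in the other cells, with 0 of 2 tested genes called in edgeR. The summed epithelial list had 31.5, 29.8, 45 and 115 CPM against 40.2, 29.4, 36.3 and 41 CPM, also with 0 of 2 called, and was highest in the interferon-high cells of cKO 2. The part of these cells in the results was not tested. The dendritic cell list had 661 CPM in control 1, of which 1 cell with 83 UMIs of H2-Aa, H2-Ab1 and Cd74 held the most, and 89.4 to 127 CPM in the other libraries. H2-Aa was called higher (1.09, SE 0.34, adjusted p 0.0376), and without control 1 it differed by -0.17. Without the 17 interferon-high cells and the other cells that held at least 3 macrophage or dendritic cell UMIs, 423 genes were called. The summed dendritic list of the other cells was 136 to 247 CPM.

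Haemoglobin RNA stood in 3 cells. These held 9373, 5936 and 5519 UMIs of the 4 erythroid genes, 1 cell in control 1 and 2 in cKO 1, and 8 of the 11519 other cells held at least 10. The summed level was 34772 and 86040.1 CPM in the interferon-high cells of control 1 and cKO 1 and 29.8 and 46.2 CPM in control 2 and cKO 2. In the other cells it was 2860 and 3514 CPM in control 1 and cKO 1 and 15.4 and 45.0 CPM in control 2 and cKO 2. All 4 erythroid genes were called higher, from 3.89 for Hbb-bs to 4.74 for Hbb-bt. Without all cells of at least 10 haemoglobin UMIs the log2 difference of Hbb-bs was -0.00373. The 18 named genes of the interferon and MHC class I lists with at least 10 CPM in the other cells all kept their calls without those cells. Scrublet scores put 3 of the 90 cells among the 5% highest of their library.

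Genes of the early stress response moved with the interferon-high cells too. Of 4 tested, 3 were called higher, against 4.43% of all genes with at least 10 CPM in the other cells. Junb differed by 2.07 (SE 0.21, adjusted p 2.37e-10), Dusp1 by 2.1 (SE 0.38, adjusted p 7.99e-05) and Ier2 by 1.12 (SE 0.30, adjusted p 0.0109). Junb had 208, 819, 101 and 242 CPM against 59.7, 106, 48.8 and 83.7 CPM, highest in control 2. The part of the stress genes in the other results was not tested. Median mitochondrial shares were lower in the interferon-high cells of every library, between 5.20 and 5.94% against 5.69 to 6.82%.

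Of the 339 genes called higher that had at least 10 CPM in the other cells, 257 were on none of the lists. The rule on named genes picks 8 of the genes on no list, of which 2 were at that level. Gimap4, a GTPase of maturing lymphocytes, had 359, 238, 169 and 127 CPM against 37.1, 12.4, 18.4 and 8.19 CPM and differed by 3.68 (SE 0.24, adjusted p 2.8e-16). Tesc, a calcium-binding protein, had 227, 209, 169 and 139 CPM against 21.7, 13.2, 22.4 and 14.4 CPM and differed by 3.47 (SE 0.25, adjusted p 1.12e-14). Both were higher without overlap. The other 6 passed the low-value filter only through the interferon-high cells. Among them Ddx60, a helicase that assists RNA sensors, had 94.5, 29.8, 56.2 and 127 CPM against 2.74 to 6.88 CPM, and Tnfrsf9, the TCR-induced receptor 4-1BB, 88.2, 14.9, 78.7 and 23.1 CPM against 3.94 to 6.50 CPM. The remaining genes were 9930111J21Rik2 (56.2 to 113 CPM against 1.83 to 4.38 CPM), Chd7 (22.5 to 44.7 CPM against 1.52 to 3.53 CPM), Acvrl1 (5.62 to 75.6 CPM against 1.11 to 4.10 CPM) and AW011738 (33.7 to 89.4 CPM against 3.02 to 7.87 CPM).

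Of the 231 genes called lower, 222 were on none of the lists, and the 8 with the largest difference rested on 0 to 3 UMIs per library in the interferon-high cells. BB031773 had 0, 14.9, 0 and 11.5 CPM against 63.5, 70.5, 46.7 and 41.9 CPM, a log2 difference of -3.57 (SE 0.66, adjusted p 0.000119). Xrra1 had 18.9, 14.9, 11.2 and 11.5 CPM against 67.9, 81.5, 43.8 and 42.3 CPM and differed by -1.84 (SE 0.45, adjusted p 0.00412). Cacna1e (-3.5), Rfc5 (-3.26), Podxl2 (-2.15), Gm14029 (-2.15), Gm12258 (-1.98) and Pcgf3 (-1.97) were among these, with single libraries near the other cells, such as 29.8 against 41.9 CPM of Podxl2 in control 2 and 23.1 against 28.7 CPM of Gm12258 in cKO 2, and the fitted differences depend on the prior count and are no bounds.

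Promoter letters were counted over the called genes. Only genes with at least 10 CPM in the other cells and an entry in the promoter table are counted. The same letters occurred in 19 of 39 genes called higher that were on the 8 interferon lists, in 20 of 239 called higher outside them (8.37%), in 9 of 184 called lower (4.89%) and in 229 of 6120 of all such genes (3.74%). In the MHC class I list, 4 of 13 called genes held them. The shorter letters AAANNGAAA, which lie within every longer match, occurred in 25 of the 39 genes (64.1%) and in 582 of the 6120 (9.51%). Windows of 3 listed genes called higher are shown to let the matches be compared with those of the rule genes:
Ifi206 (chr1:173491339-173491368, gene on the minus strand): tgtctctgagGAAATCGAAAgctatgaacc
Trim30a (chr7:104465210-104465239, gene on the minus strand): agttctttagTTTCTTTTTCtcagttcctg
Irgm1 (chr11:48871425-48871454, gene on the minus strand): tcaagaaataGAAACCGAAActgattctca
These matches began 40, 36 and 24 bases before the start. The RefSeq start of Ifi206 matched no GENCODE M21 transcript of the gene, which spans 173468485 to 173491041 there. Its distance of 40 bases therefore holds for the RefSeq start only.

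Genotype was compared in the whole gate first, where the 6 interferon genes could be tested because the gate did not use them. Usp18 had 5.80, 2.54, 11.1 and 6.92 CPM in control 1, control 2, cKO 1 and cKO 2, higher in both cKO libraries without overlap, as were 16.6% of all 11526 tested genes, with a log2 fold change of 1.18 (SE 0.39, adjusted p 0.31) in edgeR on genotype. Rsad2 had 5.39, 2.0, 9.71 and 4.01 CPM, and the genotypes overlapped (0.94, SE 0.50, adjusted p 0.545). Ifit1 had 14.4, 5.82, 16.6 and 13 CPM, also with overlap (0.63, SE 0.34, adjusted p 0.543). The other 3 genes gave log2 fold changes of 0.64 for Ifit3, 0.58 for Isg15 and 0.27 for Rtp4, with adjusted p of 0.531, 0.747 and 0.802. All 6 point estimates were above 0, none passed the threshold, and control 2 was the lowest library for 5 of the 6. Without control 2, Rtp4 and Isg15 were at -0.21 and -0.07. With the replicate number as a block, a fit that leaves 1 residual degree of freedom, 4 of the 6 passed edgeR's threshold, Usp18 (adjusted p 0.000373), Ifit1 (0.00629), Rsad2 (0.0254) and Isg15 (0.047), and Rtp4 (0.266) and Ifit3 (0.326) did not. A sum over cells cannot tell more cells with a transcript from more transcripts per cell. In all, 18 of 11526 genes were called (0.156%), 10 higher (0.0868%) and 8 lower (0.0694%) in cKO, and 0 of the genes of the interferon and MHC class I lists were among them. With the block, 447 genes (3.88%) were called higher and 341 (2.96%) lower, and of 120 tested members of those lists 10 were higher and 2 lower, so the calls depend on whether equal numbers mark the pairs of mice. The called genes with the largest fold changes were Dapl1, Tspoap1, Gm41600, Gzma and Gm30373, higher in cKO by a log2 fold change of 1.35 to 2.53, and Drc1, Bex2, Gm32004, Rbm24 and Cdkl1, with log2 fold changes of -1.45 to -3.07. Without 1 library at a time the count of called genes lay between 0 (without cKO 1) and 254 (without control 1), with 188 without control 2 and 1 without cKO 2.

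Within the interferon-high cells, no gene was called between genotypes without a replicate block. Of 2202 genes tested, 0 were called in edgeR's quasi-likelihood test and 0 in DESeq2, and 57 (2.59%) had an unadjusted p under 0.05 in edgeR, as had 10 in DESeq2. With the replicate number as a block 7 were called higher (0.318%) and 3 lower (0.136%). With 27, 11, 29 and 23 cells the design could show only large changes, since simulated 2-fold and 4-fold changes (1 and 2 on the log2 scale) were recovered for 14.9% and 86.4% of genes. Without 1 library at a time, 6 to 13 genes were called: 6 without control 1, 10 without control 2, 8 without cKO 1 and 13 without cKO 2. Of the 6 rule genes, Rsad2, Usp18 and Ifit3 were higher in both cKO libraries than in both control libraries, such as 189 and 74.5 CPM of Rsad2 in control and 230.4 and 231 CPM in cKO, as were 12.6% of the 2202 tested genes. Ifit1, Rtp4 and Isg15 overlapped between genotypes. These genes chose the cells and are not tested there. Bst2 differed by 0.38 (SE 0.31) between genotypes.

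The change of interferon-high against other cells was then compared between genotypes by the interaction term, where 2 of 7936 genes (0.0252%) were called, both smaller in cKO. Both, Cd74 and H2-Eb1, encode parts of the MHC class II system of antigen-presenting cells. With 1 library left out, both were called without control 2 only: 0 genes were called without control 1 or cKO 1, and 2 other genes, both larger in cKO, without cKO 2. No gene of the interferon lists was called. Over members with at least 10 CPM in the other cells, the median interaction was 0.11 for 9 transcription factors, 0.38 for 3 sensors, 0.39 for 4 IFIT and ISG15 genes, -0.14 for 9 antiviral effectors, 0.08 for 8 Schlafen and PARP genes, 0.40 for 4 p200 genes, 0.41 for 9 GTPases, 0.14 for 16 other interferon-stimulated genes and -0.32 for 16 MHC class I genes, at 0.00456 over all 7656 genes. H2-K1 had the interaction -0.92 (SE 0.28, adjusted p 0.999). This test was weak, since simulated 4-fold changes were recovered for 19.7% of genes, so a lack of calls does not show that the response was equal in both genotypes.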

How the data were processed

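The authors deposited raw UMI counts per gene and cell, made per the file headers with cellranger 6.1.1 on mm10, as filtered matrices, 1 per library. Groups came from the sample labels. The members and gene lists were chosen with earlier results of these data known. Counts were summed per library and population and tested with edgeR 4.0.16 (R 4.3.3; TMM scaling, quasi-likelihood F test, Benjamini-Hochberg adjustment, threshold 0.05, mean of at least 10 CPM where interferon-high and other cells are compared and filterByExpr for genotype alone), with the library as a block for interferon-high against other cells, with genotype alone for cKO against control, and with their interaction. DESeq2 1.42.0 was an alternative. Shares were compared by exact permutation (scipy 1.17.1), and cells were thinned to 1000 UMIs by hypergeometric draws. Scrublet marked doublet scores and removed no cell in the main results. The scripts were tested on simulated counts. Named genes were the 6 of the rule, the 4 members of each list with the largest absolute log2 difference among those called, any receptor or transcription factor, the 8 called genes on no list with the largest difference in each direction, the 5 called genes with the largest fold change in each direction between genotypes, and Tox4. Bst2, Ly6e and list members given as not passing the test were named after their values were seen. Other settings were another normalization, no low-count filter, stricter mitochondrial and sum limits, a depth-matched reference, each library left out and a replicate block. Added after seeing the data were the removal of cells with myeloid or haemoglobin RNA or shared barcodes, the split by selection genes and the limit of 10 CPM in the other cells alone, over which list members were counted. Results of some genes are not reported here.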

Additional observations from a re-analysis of the deposited data

Results flagged for a closer look

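Of the changes between interferon-high and other cells, 2 differed between genotypes in the interaction test of edgeR, both genes of the MHC class II system. For Cd74, the invariant chain, the log2 difference was smaller in cKO by -3.13 (SE 0.52, adjusted p 0.000472). Its level in the interferon-high cells of control 1, control 2, cKO 1 and cKO 2 was 384, 44.7, 33.7 and 46.2 CPM against 103, 69.2, 115 and 129 CPM in the other cells. For H2-Eb1, a class II beta chain, the interaction was -3.98 (SE 0.79, adjusted p 0.0148), with 208, 0, 5.62 and 23.1 CPM against 44.3, 33.5, 56.5 and 52.4 CPM. Only control 1 was above its other cells for both genes. In that library 1 interferon-high cell held 83 UMIs of H2-Aa, H2-Ab1 and Cd74, and the next highest held 4. Without control 1, without cKO 1, and without cells of at least 3 macrophage or dendritic cell UMIs, 0 genes were called, and without cKO 2 neither of these 2 was.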

How the results depend on the processing

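These results are limited by the number of interferon-high cells and of libraries, and by the processing settings given here. Among the single genes, 1393 values under another setting kept their direction and side of the threshold, 227 lost and 10 gained the call, and 19 changed sign. The difference in share between genotypes ranged from -0.223 to 0.850 percentage points with 1 library left out. After thinning it ranged from -0.0519 to 0.551 and was -0.000397 for at least 3 UMIs, and cycling cells differed from the Rag+ gate by 0.300 unthinned. For interferon-high against other cells, 199 genes were called at 5% mitochondrial UMIs, 245 with the depth-matched reference, 423 without myeloid RNA, 268 and 91 at 2 or more and at most 1 selection UMI, and 296 to 679 with 1 library left out. For genotype in the whole gate the counts were 51 (DESeq2), 320 (no filter), 3 (5% mitochondrial UMIs), 36 (without myeloid RNA), 30 (without haemoglobin), 0 and 106 (2 or more and at most 1 selection UMIs) and 0 to 254 (1 library left out). Within interferon-high cells they were 8 (no filter), 1 (without myeloid RNA), 3 (sum of at least 6), 1 (2 or more selection UMIs) and 6 to 13 (1 library left out). For the interaction they were 1 (DESeq2 size factors), 0 (DESeq2), 5 (5% mitochondrial UMIs), 0 (without myeloid RNA), 1 (without haemoglobin), 0 (sum of at least 6) and 0 to 2 (1 library left out, with both genes called without control 2 and neither in the other 3 cases). With a replicate block, 788 genes in the whole gate and 10 within interferon-high cells were called, and same-numbered libraries correlated at 0.766 and 0.239. The study had 2 pairs of mice, but no source used here states which libraries formed a pair. Signs changed for H2-Aa (-0.18 without myeloid RNA, -0.15 at 2 or more selection UMIs, -0.18 at a sum of at least 6 and -0.17 to 1.51 with 1 library left out), Hbb-bs (-0.00373 without haemoglobin), Hbb-bt, Hba-a1, Hba-a2 and Hbb-bs (-8.21, -6.42, -10.43 and -6.51 at 2 or more selection UMIs and -13.28, -6.71, -14.25 and -7.24 at a sum of at least 6), Bcl2 (-0.18 at 2 or more selection UMIs), Rtp4 and Isg15 between genotypes (-0.21 and -0.07 without control 2, -0.01 and -0.37 without cKO 1, with 0.85 and 1.46 as the highest values with 1 library left out) and the Tox4 interaction (0.29 at 5% mitochondrial UMIs). The cause was not tested for any of these.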

Other observations

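Genes of γδ T cells (4 genes, 3 of them tested and none called in edgeR) were unevenly spread over the interferon-high cells. Their summed level was 12.6, 134, 219 and 46.2 CPM in control 1, control 2, cKO 1 and cKO 2 against 102, 48.6, 94.6 and 64.4 CPM in the other cells. In control 2, 1 cell held 8 of the 9 UMIs, and in cKO 1 the highest cell held 12 of 39.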
